A study of Drosophila melanogaster with 6 samples.

Results

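The genes described here are 7 core genes of Drosophila apoptosis: the activators rpr (reaper), grim and skl (sickle), the inhibitor Diap1, the initiator caspase Dronc, its adaptor Dark and the effector caspase Dcp-1. They were taken by their exact symbols from a table of 17494 genes, in which all 7 were found. The rule used no measured value, but earlier results of these data were known when the genes were chosen. The table holds exon read counts of 6 bulk RNA-seq libraries of adult ventral nerve cords (VNCs), 2 for each of 3 conditions. In poxn > prosRNAi, SypRNAi VNCs, poxn-GAL4 drives RNAi constructs against both prospero (pros) and Syncrip (Syp). In poxn > prosRNAi VNCs it drives the construct against pros alone. Both form tumors of neuroblasts (NBs), the neural stem cells of the fly, which start in the larva and persist in adults, which were about 6 days old by the labels and older by the methods. Wild-type VNCs of the same age carry no NBs and served as the reference for both tumors. The driver is active in a small set of thoracic lineages, the tumor system also carries UAS-dicer2, and the dissected tumor VNCs include wild-type tissue. VNCs of female and male adults were pooled.

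In flies, programmed cell death is held back by Diap1, a ubiquitin ligase that binds caspases and marks them for degradation. Rpr, Grim, Skl and a further protein, Hid, bind Diap1 and release the caspases. Free Dronc assembles with Dark, the fly homolog of Apaf-1, into the apoptosome and cleaves effector caspases such as Dcp-1 and Drice. NBs of the normal VNC either die by this route or stop dividing before adulthood, and activator genes are known to be switched on transcriptionally in the NBs that die.

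Library totals ranged from 86098417 to 128107088 counts, and 15.6% to 23.8% of them fell on genes of ribosomal RNA. Summed over both libraries of a condition, the genes described here had between 253 counts (rpr in poxn > prosRNAi tumors) and 38882 counts (Diap1 in poxn > prosRNAi, SypRNAi tumors). Levels are given as CPM, a gene's count per mega-count of its library once library sizes had been adjusted with TMM, and levels of different genes are compared only as CPM per kb of exon. The targeted genes averaged 1150 CPM (pros) and 440 CPM (Syp) in poxn > prosRNAi, SypRNAi tumors, 769 and 1906 CPM in poxn > prosRNAi tumors and 2432 and 697 CPM in wild-type VNCs. The 5 NB markers summed to 1683 to 1804 CPM in poxn > prosRNAi, SypRNAi tumors, 2151 to 2272 CPM in poxn > prosRNAi tumors and 8.78 to 9.71 CPM in wild type, and 8 neuronal markers to 1576 to 2200, 1070 to 1284 and 6626 to 6754 CPM. The libraries within a condition correlated at 0.989 to 0.995 (Pearson's r of log2 CPM across genes, which are not independent replicates). The study's methods call the 2 libraries of a condition technical replicates, so the p-values measure only the spread between these libraries. In bulk tissue, fewer cells of a type and less RNA per cell cannot be told apart.

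**Figure D1:**
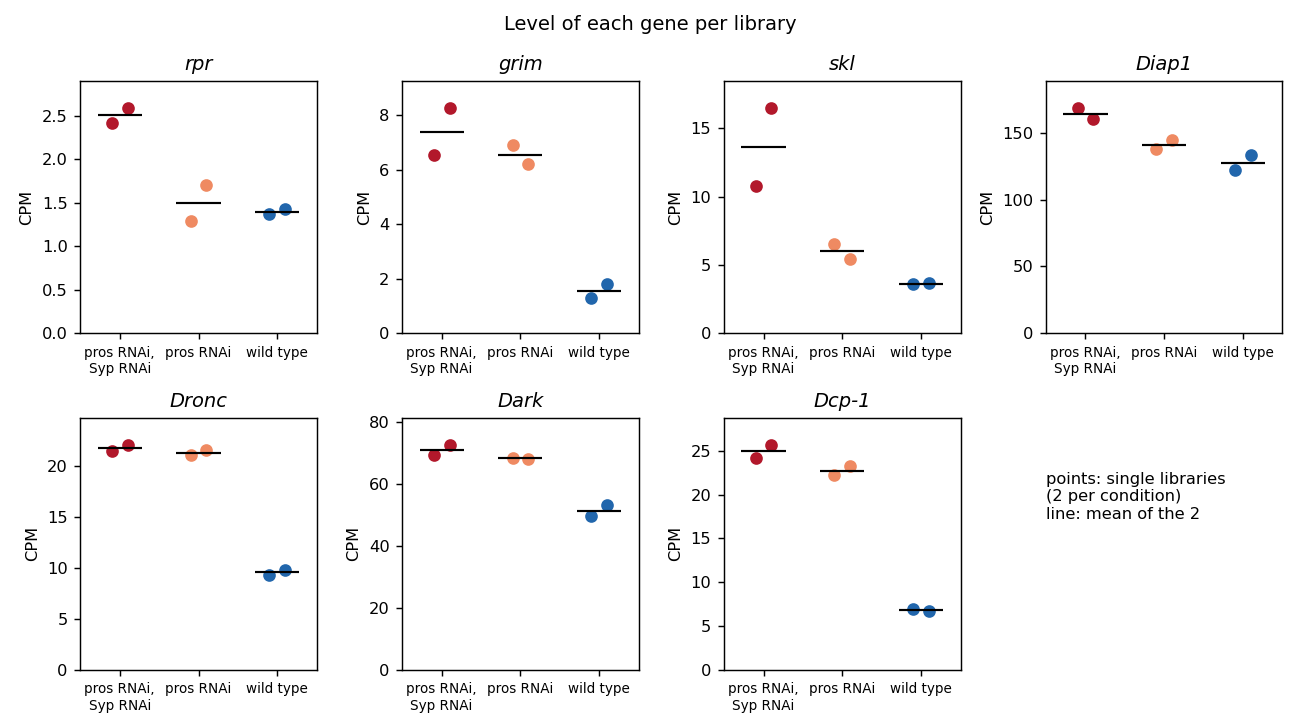
Level of the 7 genes in each library, in CPM on axes that start at 0. Points are single libraries (2 per condition), lines their means. The tumor libraries lie above both wild-type libraries for grim, skl, Diap1, Dronc, Dark and Dcp-1. For rpr, poxn > prosRNAi libraries lie on either side of wild type.

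The activators lie together in the genome. In Release 6 coordinates, rpr (FBgn0011706) is at chr3L:18397535-18398435, grim (FBgn0015946) at chr3L:18302719-18304417 and skl (FBgn0036786) at chr3L:18438561-18439942. All 3 are single-exon genes on the minus strand with short coding regions of 198, 417 and 327 bases. They form a cluster with hid (chr3L:18167745-18185641, minus strand) that spans 272.198 kb, with gaps of 117.077 kb between hid and grim, 93.117 kb between grim and rpr and 40.125 kb between rpr and skl. The table lists 13 other genes within this span, and 3 of them reached 100 counts in a library. These were CR45975 and asRNA:CR45974, which lie wholly inside the grim exon, and CheA75a, with 202 and 310 counts in wild type and at most 1 count in any tumor library.

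The levels of the activators changed unequally along this cluster. Hid, the partner that stands outside the 7 genes, had 1.43 and 1.91 CPM in poxn > prosRNAi, SypRNAi tumors, 1.09 and 1.03 CPM in poxn > prosRNAi tumors and 4.38 and 5.07 CPM in wild-type VNCs. Both tumors therefore lay below wild type for hid, while both lay above it for grim and skl. For hid, the log2 fold change over wild type was -1.49 ± 0.21 in poxn > prosRNAi, SypRNAi tumors (SE, edgeR's adjusted p = 0.00271) and -2.12 ± 0.17 in poxn > prosRNAi tumors (adjusted p = 1.08e-04). The neuronal markers had median log2 fold changes over wild type of -1.78 and -2.44 in the same order. Their part in the change of hid was not tested.

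**Figure D2:**
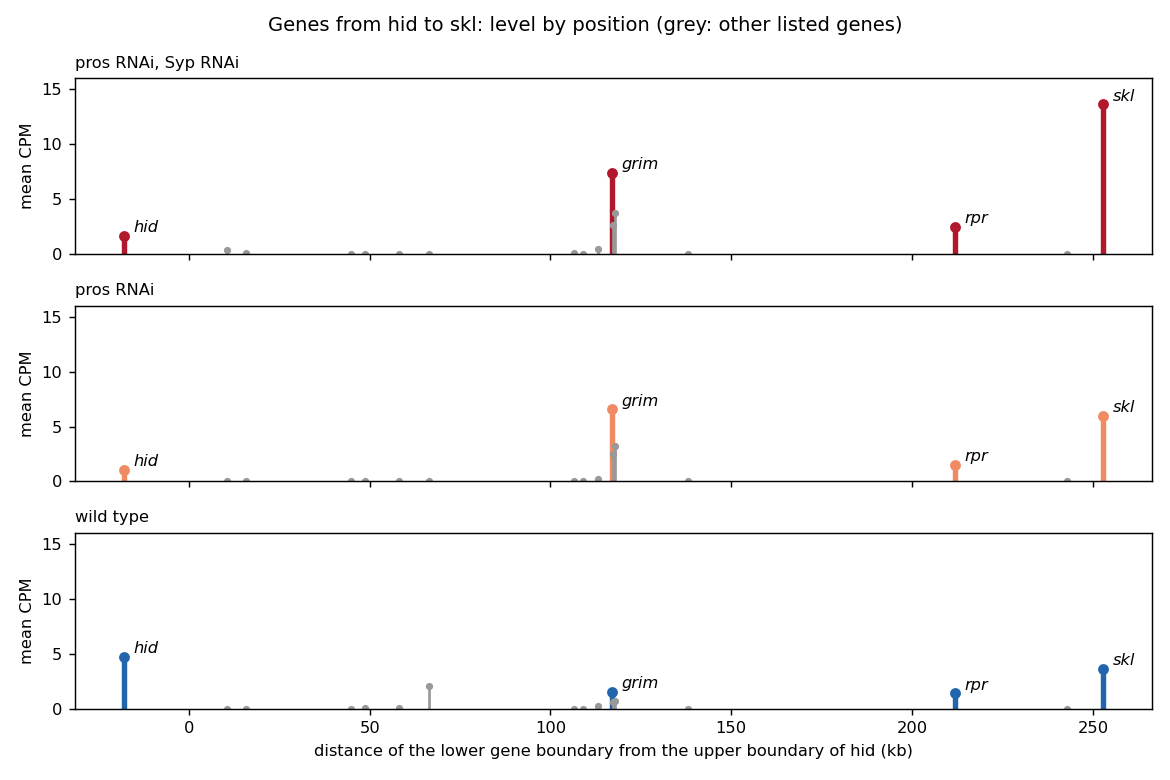
Mean CPM of each listed gene from hid to skl (vertical axis) against the distance of its lower boundary from the upper boundary of hid in kb (horizontal axis), with poxn > prosRNAi, SypRNAi tumors on top, poxn > prosRNAi tumors in the middle and wild type at the bottom. Coloured stems are the 4 activators and grey stems the 13 other genes. The stem of hid is highest in wild type (mean 4.72 CPM), and that of skl is highest in poxn > prosRNAi, SypRNAi tumors (mean 13.7 CPM).

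Sickle was the gene of the 7 that rose in the comparison of the tumors with each other. It had 10.8 and 16.5 CPM in poxn > prosRNAi, SypRNAi tumors, 6.56 and 5.43 CPM in poxn > prosRNAi tumors, and 3.59 and 3.67 CPM in wild type. The 3 conditions did not overlap, although the poxn > prosRNAi, SypRNAi libraries stood further apart than the others (SD 4.02 CPM, against 0.804 CPM in poxn > prosRNAi tumors and 0.0573 CPM in wild type). In poxn > prosRNAi, SypRNAi over poxn > prosRNAi tumors the log2 fold change was 1.18 ± 0.23, a fold of 2.26 (edgeR's quasi-likelihood test, adjusted p = 0.0282 over 13703 genes). This call rested on the presence of both poxn > prosRNAi libraries, since the log2 fold change was 1.33 with an adjusted p of 0.110 (edgeR) without the first and 1.05 with an adjusted p of 0.141 without the second. Over wild type, skl rose by 1.91 ± 0.23 in poxn > prosRNAi, SypRNAi tumors (adjusted p = 0.00159) and by 0.74 ± 0.15 in poxn > prosRNAi tumors (adjusted p = 0.00547), both by edgeR.

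Muscle markers moved with skl between the tumors. The 10 of them summed to 1083 and 1862 CPM in poxn > prosRNAi, SypRNAi tumors, 208 CPM in each poxn > prosRNAi library and 839 and 1222 CPM in wild type. Their order over the conditions differed from that of skl, which had its lowest level in wild type. Between the tumors, 9 of the 10 rose and 0 fell (edgeR), 1 of 6 fat body markers rose and 5 fell, and 3 of 8 neuronal markers rose and 0 fell. None of these markers was at or under 3 counts in both libraries of a condition. Their part in the change of skl was not tested.

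Reaper had the lowest level per kb of the 7 genes in both tumors, with grim counted over its whole exon. On the part of the grim exon that no other gene shares, grim had 2.56 and 2.53 CPM per kb in poxn > prosRNAi, SypRNAi tumors. These are low estimates, since reads that cross into a shared part were subtracted with the counts of the genes inside the exon. Rpr had 2.69 and 2.87 CPM per kb in poxn > prosRNAi, SypRNAi tumors, so that the order of rpr and grim there is not settled. In CPM, rpr had 2.42 and 2.59 in poxn > prosRNAi, SypRNAi tumors, 1.29 and 1.71 in poxn > prosRNAi tumors and 1.36 and 1.42 in wild type. The poxn > prosRNAi, SypRNAi libraries lay above all others, and the poxn > prosRNAi and wild-type libraries overlapped. Over wild type, rpr rose by 0.84 ± 0.17 in poxn > prosRNAi, SypRNAi tumors (edgeR's adjusted p = 0.00934), a fold of 1.79. That call was lost without the first wild-type library (0.84, adjusted p = 0.0621) and without the second (0.90, adjusted p = 0.0549). In poxn > prosRNAi, SypRNAi over poxn > prosRNAi tumors its log2 fold change of 0.73 ± 0.22 did not pass (edgeR's adjusted p = 0.0710), but it passed with library totals alone (0.87, adjusted p = 0.0421), with DESeq2's Wald test (0.75, adjusted p = 0.0488) and with all 6 libraries in one fit (0.73, adjusted p = 0.0427). In poxn > prosRNAi tumors over wild type it was 0.12 ± 0.22 (edgeR's adjusted p = 0.637), and -0.17 with library totals alone.

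Grim had the largest point estimate of change over wild type among the 7 genes, in both tumors. It had 6.53 and 8.27 CPM in poxn > prosRNAi, SypRNAi tumors, 6.90 and 6.20 CPM in poxn > prosRNAi tumors and 1.29 and 1.79 CPM in wild type. Every tumor library was above both wild-type libraries, and the libraries of the tumors overlapped with each other. Its log2 fold change over wild type was 2.26 ± 0.24 in poxn > prosRNAi, SypRNAi tumors (adjusted p = 0.00105) and 2.09 ± 0.21 in poxn > prosRNAi tumors (adjusted p = 2.52e-04), folds of 4.78 and 4.27 (edgeR). Between the tumors it was 0.17 ± 0.16 (edgeR's adjusted p = 0.485).

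The counts of grim are shared with its neighbours. CR45975, on the same strand, covers 31.8% of the grim exon and asRNA:CR45974, on the opposite strand, covers 44.1%, and the counting gave a read to every gene it overlaps without a strand setting. When the counts of both were subtracted, 139 and 106 counts of grim remained in poxn > prosRNAi, SypRNAi tumors, 72 and 65 in poxn > prosRNAi tumors and 23 and 33 in wild type, which is 11.1% to 16.1% of its counts. The tumors still lay above wild type, with log2 fold changes of 2.13 in poxn > prosRNAi, SypRNAi tumors (edgeR's adjusted p = 0.00177) and 1.76 in poxn > prosRNAi tumors (adjusted p = 0.00205).

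Per kb of exon, the relative weight of the activators differed between conditions. Of the sum of rpr, grim and skl, skl made up 54.5% and 60.7% in poxn > prosRNAi, SypRNAi tumors, 46.3% and 41.5% in poxn > prosRNAi tumors and 53.3% and 50.2% in wild type. The share of grim was 26.8% and 24.7%, 39.7% and 38.5%, and 15.6% and 19.9% in the same order of conditions. Grim thus had its largest share in poxn > prosRNAi tumors, and skl in poxn > prosRNAi, SypRNAi tumors. The level of grim here includes the shared part of its exon. On the 409 bases that no other gene shares, with the counts that remained after subtraction, its share was lower in every library, 19.6% and 14.6% in poxn > prosRNAi, SypRNAi tumors, 23.3% and 26.1% in poxn > prosRNAi tumors and 10.7% and 12.6% in wild type. The order of the conditions for grim was the same, and the share of skl was 59.8% and 68.8%, 58.9% and 49.9%, and 56.4% and 54.8%. For grim these shares are low estimates, since reads that cross into a shared part were subtracted too. Hid made up 2.42% and 2.35% of the sum of all 4 in poxn > prosRNAi, SypRNAi tumors, 2.58% and 2.64% in poxn > prosRNAi tumors and 18.3% and 19.3% in wild type. These shares were not tested.

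**Figure D3:**
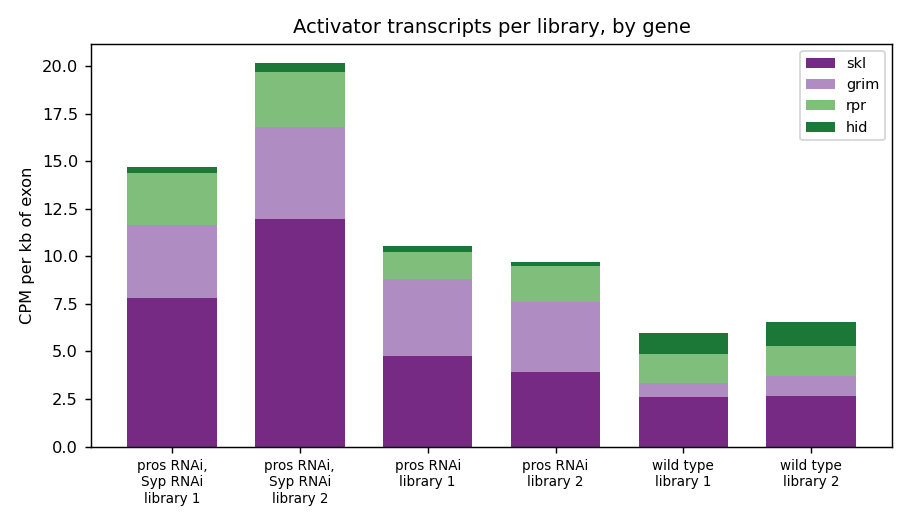
CPM per kb of exon of skl, grim, rpr and hid, stacked, in each of the 6 libraries on an axis that starts at 0. The wild-type bars are the shortest and hold the largest part of hid, 18.3% and 19.3% of the bar. Skl is the largest part of the bar in every library.

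Diap1, the inhibitor that all 4 activators bind, was the most abundant of the 7 genes in every condition. The gene (FBgn0260635, chr3L:16038410-16051034, minus strand) has 6 merged exons with 3143 bases in all. It had 169 and 161 CPM in poxn > prosRNAi, SypRNAi tumors, 138 and 145 CPM in poxn > prosRNAi tumors and 123 and 134 CPM in wild type. The conditions did not overlap, but the differences were small. Over wild type, Diap1 rose by 0.37 ± 0.076 in poxn > prosRNAi, SypRNAi tumors, a fold of 1.29 (edgeR's adjusted p = 0.00991). The call was lost with library totals alone (0.23, adjusted p = 0.144) and without the first wild-type library (0.33, adjusted p = 0.0666). In poxn > prosRNAi tumors over wild type the log2 fold change was 0.16 ± 0.072 (edgeR's adjusted p = 0.0825), and -0.13 with library totals alone. Between the tumors it was 0.22 ± 0.071 (edgeR's adjusted p = 0.0852), and it passed with library totals alone (0.35, adjusted p = 0.0405).

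Per kb, the sum of rpr, grim and skl came to 26.7% and 38.4% of the level of Diap1 in poxn > prosRNAi, SypRNAi tumors, 23.3% and 20.6% in poxn > prosRNAi tumors and 12.5% and 12.4% in wild type. With hid in the sum the values were 27.3% and 39.4%, 23.9% and 21.1%, and 15.3% and 15.4%. Without hid and with grim taken from its unshared bases they were 24.3% and 33.9% in poxn > prosRNAi, SypRNAi tumors, 18.3% and 17.1% in poxn > prosRNAi tumors and 11.8% and 11.4% in wild type. The last values are low estimates, because the level of grim on those bases is one. Activator RNA thus stood below that of Diap1 in every library, and nearest to it in poxn > prosRNAi, SypRNAi tumors. Scaling between libraries cancels in these ratios, which were not tested.

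Dronc, the initiator caspase of the apoptosome, rose over wild type in both tumors to nearly the same level. The gene (FBgn0026404, chr3L:9968479-9971002, plus strand, 2 exons) shares no exon with another gene. It had 21.4 and 22.1 CPM in poxn > prosRNAi, SypRNAi tumors, 21.1 and 21.6 CPM in poxn > prosRNAi tumors and 9.34 and 9.76 CPM in wild type. The tumor libraries overlapped with each other and lay apart from wild type. The log2 fold change over wild type was 1.19 ± 0.068 in poxn > prosRNAi, SypRNAi tumors (adjusted p = 1.70e-04) and 1.17 ± 0.071 in poxn > prosRNAi tumors (adjusted p = 3.46e-05), against 0.028 ± 0.063 between the tumors (adjusted p = 0.779), all by edgeR.

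Dark, which binds Dronc in the apoptosome, rose by less. It lies at chr2R:17020027-17026703 (FBgn0263864, plus strand, 10 merged exons) and had 69.3 and 72.7 CPM in poxn > prosRNAi, SypRNAi tumors, 68.5 and 68.1 CPM in poxn > prosRNAi tumors and 49.5 and 53.2 CPM in wild type. All tumor libraries were above both wild-type libraries. The log2 fold change over wild type was 0.47 ± 0.069 in poxn > prosRNAi, SypRNAi tumors (edgeR's adjusted p = 0.00317) and 0.43 ± 0.070 in poxn > prosRNAi tumors (adjusted p = 0.00217), but with library totals alone the value in poxn > prosRNAi tumors was 0.14 (adjusted p = 0.274). Between the tumors it was 0.054 ± 0.061 (edgeR's adjusted p = 0.556). Of the exon length of Dark, 56.9% is shared with asRNA:CR44390 on the opposite strand. With the counts of that gene subtracted in proportion to the shared length, the log2 fold changes over wild type were 0.33 in poxn > prosRNAi, SypRNAi tumors (edgeR's adjusted p = 0.0139) and 0.31 in poxn > prosRNAi tumors (adjusted p = 0.0126). Dronc per kb was 0.749 and 0.736 times Dark in poxn > prosRNAi, SypRNAi tumors, 0.746 and 0.767 times in poxn > prosRNAi tumors and 0.457 and 0.444 times in wild type. The level of Dark in these ratios includes the shared part of its exon.

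Dcp-1, an effector caspase, rose over wild type more than Dronc and Dark in both tumors. The gene (FBgn0010501, chr2R:23551313-23553547, plus strand, 3 merged exons) had 24.2 and 25.7 CPM in poxn > prosRNAi, SypRNAi tumors, 22.3 and 23.2 CPM in poxn > prosRNAi tumors and 6.97 and 6.76 CPM in wild type. The conditions did not overlap, with wild type far below the tumors. The log2 fold change over wild type was 1.86 ± 0.071 in poxn > prosRNAi, SypRNAi tumors (adjusted p = 7.73e-05) and 1.74 ± 0.072 in poxn > prosRNAi tumors (adjusted p = 1.09e-05), folds of 3.64 and 3.35 (edgeR). Between the tumors it was 0.13 ± 0.065 (edgeR's adjusted p = 0.203), and it passed with library totals alone (0.26, adjusted p = 0.0483).

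Dcp-1 shares 239 bases of exon with pita, a gene on the opposite strand with higher counts in tumors than in wild type. Pita had 10404 and 7846 counts in poxn > prosRNAi, SypRNAi tumors, 8996 and 7651 in poxn > prosRNAi tumors and 2633 and 3113 in wild type. Subtracting its counts in proportion to the shared length left 65.5% to 76.1% of the counts of Dcp-1. The log2 fold change over wild type was then 1.91 in poxn > prosRNAi, SypRNAi tumors (edgeR's adjusted p = 1.14e-04) and 1.59 in poxn > prosRNAi tumors (adjusted p = 2.76e-05). Between the tumors it was 0.32 after this step and passed the threshold (edgeR's adjusted p = 0.0430).

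**Figure D4:**
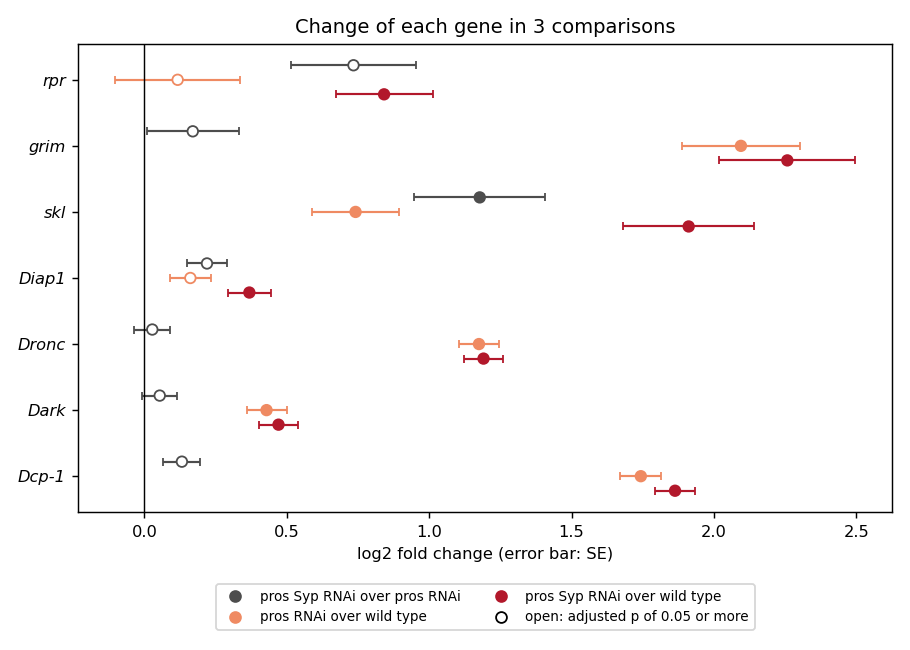
Log2 fold change (horizontal axis, error bars SE) of the 7 genes in poxn > prosRNAi, SypRNAi over poxn > prosRNAi tumors (grey), poxn > prosRNAi tumors over wild type (orange) and poxn > prosRNAi, SypRNAi tumors over wild type (red). Filled points have an adjusted p under 0.05 in edgeR's test. Between the tumors only the point of skl, at 1.18, is filled, and all 7 red points are.

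Counted over the 7 genes, 1 rose and 0 fell in poxn > prosRNAi, SypRNAi over poxn > prosRNAi tumors, where 23.3% of all tested genes were called, 10.9% higher and 12.4% lower. In poxn > prosRNAi tumors over wild type 5 rose and 0 fell, with 82.6% of all genes called, 41.9% higher and 40.7% lower. In poxn > prosRNAi, SypRNAi tumors over wild type all 7 rose, with 76.5% called, 39.8% higher and 36.7% lower. At the stricter threshold of 0.001, 3 of the 7 rose in poxn > prosRNAi tumors over wild type (54.6% of all genes called, 29.7% higher and 24.9% lower) and 2 in poxn > prosRNAi, SypRNAi tumors over wild type (37% called, 22.6% higher and 14.4% lower). Between the tumors edgeR called 0% of all genes at 0.001, although 5435 had an unadjusted p under 0.05 and DESeq2 called 1990. Skl was among these 1990 (DESeq2's Wald test, adjusted p = 1.48e-05). Over wild type, DESeq2 called 5 of the 7 at 0.001 in each tumor. Of all genes it called 9572 of 17035 in poxn > prosRNAi tumors and 8837 of 17061 in poxn > prosRNAi, SypRNAi tumors. The median log2 fold change of the 7 was 0.17, 0.74 and 1.19 in these comparisons, against 0.016, 0.0084 and 0.043 over all tested genes. The comparisons share libraries and are not independent of each other. Between the tumors, 1489 genes were called higher and 1701 lower, and library totals alone in place of TMM turned this to 2435 higher and 956 lower. Library totals alone moved the median of all genes to 0.15 between the tumors and to -0.27 in poxn > prosRNAi tumors over wild type.

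By level per kb, with each gene counted over its whole exon, the order of the genes was nearly the same in all conditions. In poxn > prosRNAi, SypRNAi tumors it was Diap1 (52.5 ± 1.86 CPM per kb, SD, n = 2), Dark (14.5 ± 0.486), Dcp-1 (14.3 ± 0.602), Dronc (10.8 ± 0.228), skl (9.88 ± 2.91), grim (4.35 ± 0.722) and rpr (2.78 ± 0.132). Dark and Dcp-1, and Dronc and skl, are neighbours that did not differ beyond their spread there. In poxn > prosRNAi tumors the order on this measure was the same. There skl (4.34 ± 0.582 CPM per kb) and grim over its whole exon (3.86 ± 0.293) were within their spread of each other. On the part of its exon that no other gene shares, grim had 1.88 and 2.05 CPM per kb in these tumors. That was below skl in value. In poxn > prosRNAi, SypRNAi tumors grim had 2.56 and 2.53 CPM per kb on that part, below rpr in value. These values of grim are low estimates, since reads that cross into a shared part were subtracted too. They do not settle its order against skl and rpr. In wild type, Dronc (4.74 ± 0.147) stood before Dcp-1 (3.92 ± 0.0859), and rpr (1.55 ± 0.0471) before grim (0.904 ± 0.209). The counts of Dark and Dcp-1 also include reads from genes that share their exons. Subtraction in proportion to the shared length left 65.5% to 76.1% of the counts of Dcp-1 and 48.3% to 54.5% of those of Dark. The places of Dark and Dcp-1 in the order therefore depend on this overlap.

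Both other initiator caspases of the fly and the effector caspase Drice were set beside Dronc and Dcp-1. Strica, an initiator-type caspase without the domain that binds Dark, had 4.39 and 3.47 CPM in poxn > prosRNAi, SypRNAi tumors, 24.0 and 25.3 CPM in poxn > prosRNAi tumors and 1.27 and 1.30 CPM in wild type. It fell in poxn > prosRNAi, SypRNAi against poxn > prosRNAi tumors, with a log2 fold change of -2.64 ± 0.15 (edgeR's adjusted p = 0.00403), where Dronc had 0.028. Strica shares 385 bases of exon with Pngl on the opposite strand, and in proportion to that length Pngl would give 636 and 530 counts in poxn > prosRNAi, SypRNAi tumors, 527 and 434 in poxn > prosRNAi tumors and 284 and 299 in wild type. The counts listed for Strica were 582 and 355, 2246 and 1962, and 145 and 172, so that its level in poxn > prosRNAi, SypRNAi tumors and in wild type cannot be told apart from overlap with Pngl. Dredd, the initiator caspase of the Imd immune pathway, rose over wild type by 1.80 ± 0.089 in poxn > prosRNAi, SypRNAi tumors (adjusted p = 1.22e-04) and by 1.75 ± 0.076 in poxn > prosRNAi tumors (adjusted p = 1.21e-05), both by edgeR. Drice had 30.3 and 30.2 CPM in poxn > prosRNAi, SypRNAi tumors, 41.6 and 39.3 CPM in poxn > prosRNAi tumors and 10.3 and 11.2 CPM in wild type. Its log2 fold change between the tumors was -0.42 ± 0.067 (edgeR's adjusted p = 0.0187), where that of Dcp-1 was 0.13. Drice per kb was therefore 1.14 and 1.07 times Dcp-1 in poxn > prosRNAi, SypRNAi tumors, 1.70 and 1.54 times in poxn > prosRNAi tumors and 1.34 and 1.51 times in wild type. The level of Dcp-1 in these ratios includes counts it shares with pita, and the ratios depend on that overlap.

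Among the partners of Diap1 in the inhibitor family, Bruce, a giant ubiquitin-conjugating protein, had 920 and 947 CPM in poxn > prosRNAi, SypRNAi tumors, 1239 and 1224 CPM in poxn > prosRNAi tumors and 612 and 607 CPM in wild type. The conditions did not overlap. Bruce was higher than wild type by 0.62 ± 0.075 in poxn > prosRNAi, SypRNAi tumors (edgeR's adjusted p = 0.00166) and by 1.03 ± 0.068 in poxn > prosRNAi tumors (adjusted p = 4.72e-05), and fell by 0.40 in poxn > prosRNAi, SypRNAi against poxn > prosRNAi tumors (adjusted p = 0.0158). Diap2, an inhibitor that binds Drice, had a log2 fold change of -0.26 ± 0.077 between the tumors (edgeR's adjusted p = 0.0715) and fell by 0.31 in poxn > prosRNAi, SypRNAi tumors against wild type (adjusted p = 0.0140). Det (Deterin, the fly survivin) rose over wild type by 2.26 ± 0.12 in poxn > prosRNAi, SypRNAi tumors (adjusted p = 1.34e-04) and by 2.75 ± 0.11 in poxn > prosRNAi tumors (adjusted p = 9.59e-06), both by edgeR.

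The wider list of 36 other apoptosis genes did not share one direction. Between the tumors 6 of 35 tested rose and 9 fell (median log2 fold change -0.10), in poxn > prosRNAi tumors over wild type 14 of 35 rose and 18 fell (median -0.30), and in poxn > prosRNAi, SypRNAi tumors over wild type 13 of 36 rose and 17 fell (median -0.23). Of all tested genes, 10.9% were called higher and 12.4% lower between the tumors, 41.9% and 40.7% in poxn > prosRNAi tumors over wild type, and 39.8% and 36.7% in poxn > prosRNAi, SypRNAi tumors over wild type, so that most genes were called over wild type whether listed or not. The counts between the tumors depended on both poxn > prosRNAi libraries, as 1 gene was called without the first and 0 without the second (edgeR, 6 of all genes called). With library totals alone they were 10 higher and 4 lower. All 4 genes listed under DNA fragmentation (Drep1 to Drep4) fell against wild type, with a median log2 fold change of -1.16 in poxn > prosRNAi, SypRNAi tumors, where 36.7% of all genes were called lower, and of -1.63 in poxn > prosRNAi tumors, where 40.7% were. Neuronal markers moved with them, with 7 of 8 lower (median -1.78) in poxn > prosRNAi, SypRNAi tumors and 8 of 8 lower (median -2.44) in poxn > prosRNAi tumors. Drep3 and Drep4 share 23.2% and 58.9% of their exons with other genes, whose part in their counts was not tested. Of the 5 corpse clearance genes, which act in the engulfment of dying cells, 4 fell and 0 rose in each tumor, among them the adaptor ced-6 by 2.64 in poxn > prosRNAi, SypRNAi tumors and by 2.27 in poxn > prosRNAi tumors. Markers of glia and hemocytes, cells that engulf dying cells, moved with them. Of 5 glial markers, 4 fell and 1 rose in poxn > prosRNAi, SypRNAi tumors against wild type (median -1.89) and 5 fell in poxn > prosRNAi tumors (median -2.18), and all 5 hemocyte markers fell in both (medians -2.48 and -2.43). The part of these markers in the counts was not tested. The cytochrome c gene Cyt-c-p fell against wild type, with log2 fold changes of -0.40 in poxn > prosRNAi, SypRNAi tumors and -1.16 in poxn > prosRNAi tumors, and between the tumors it had a log2 fold change of 0.77 ± 0.11 (edgeR's adjusted p = 0.0156).

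The TNF branch, in which the ligand Eiger (egr) signals through the receptors Grindelwald (grnd) and Wengen (wgn), held called genes of both directions. Egr had 44.1 and 51.8 CPM in poxn > prosRNAi, SypRNAi tumors, 24.9 and 25.2 CPM in poxn > prosRNAi tumors and 21.7 and 21.9 CPM in wild type. It rose between the tumors by 0.93 ± 0.086 (edgeR's adjusted p = 0.00748), and like skl it was highest in both poxn > prosRNAi, SypRNAi libraries. Grnd had 1.31 and 0.909 CPM in poxn > prosRNAi, SypRNAi tumors, 0.373 and 0.375 CPM in poxn > prosRNAi tumors and 3.17 and 3.05 CPM in wild type, with a log2 fold change of 1.52 ± 0.31 between the tumors (adjusted p = 0.0300). It shares 13.1% of its exon with kon on the opposite strand, which had 1507 and 1709 counts, 809 and 905 counts, and 4760 and 5380 counts in the same order, and the part of kon in its counts was not tested. Traf4, a signal adaptor of this branch, was at 19.5 and 10.7 CPM, 25.2 and 23.4 CPM, and 1.84 and 1.55 CPM in the same order of conditions. Of the 6 genes listed for this branch, 2 were called higher and 2 lower between the tumors, against 10.9% and 12.4% of all tested genes. Fadd was among the lower, with a log2 fold change of -0.73 ± 0.12 (edgeR's adjusted p = 0.0201). It was placed here by the list alone, and no part of Fadd in Eiger signaling was examined. Wgn fell against wild type by 2.13 in poxn > prosRNAi, SypRNAi tumors and by 2.28 in poxn > prosRNAi tumors.

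**Figure D5:**
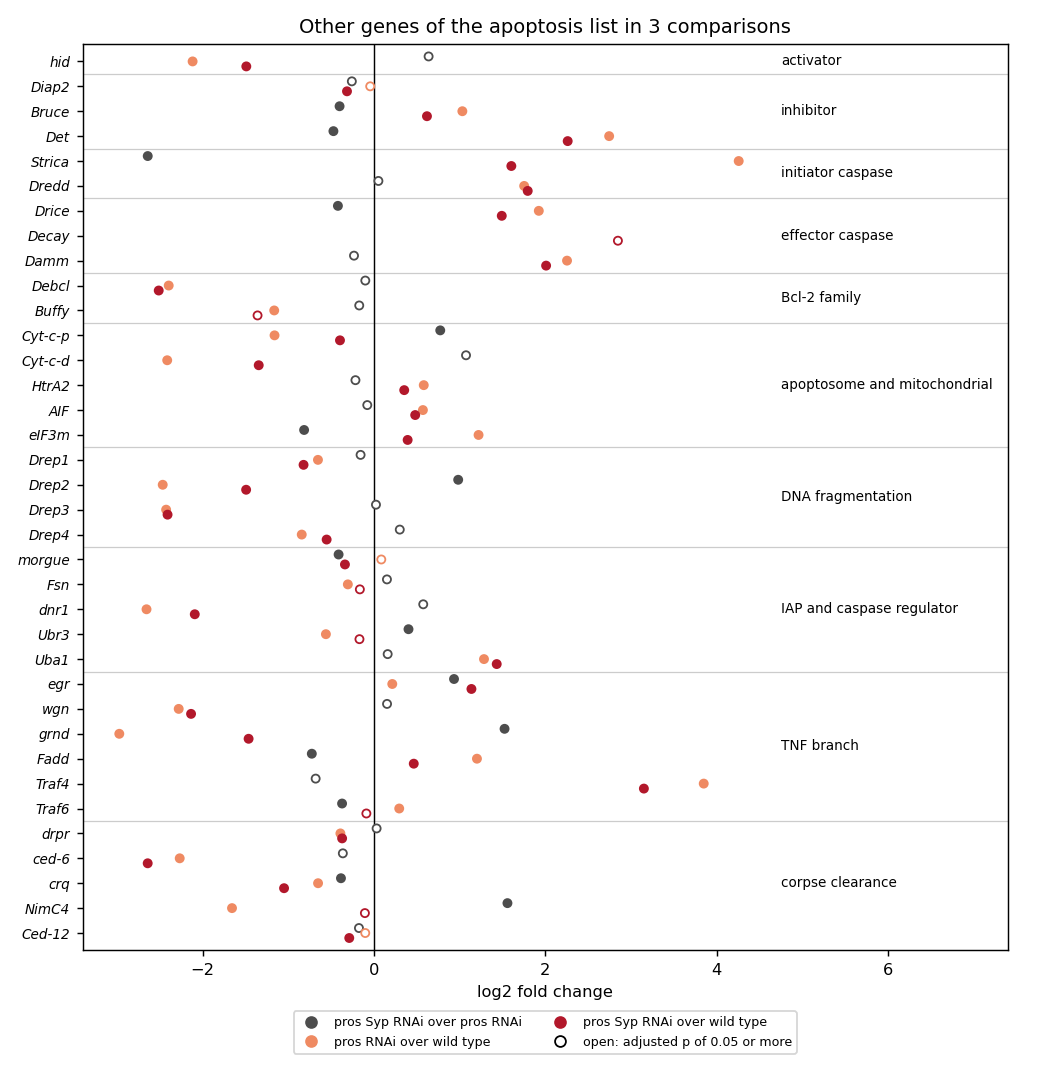
Log2 fold change (horizontal axis) of the 36 other apoptosis genes, grouped by role, in poxn > prosRNAi, SypRNAi over poxn > prosRNAi tumors (grey), poxn > prosRNAi tumors over wild type (orange) and poxn > prosRNAi, SypRNAi tumors over wild type (red). Filled points have an adjusted p under 0.05 in edgeR's test. The caspases Strica, Dredd, Drice and Damm lie right of 0 over wild type, and hid and the genes listed under DNA fragmentation lie left of it.

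Genes known to act upstream of the activators were read from a list of 7. Eip93F, the ecdysone-induced transcription factor E93 that promotes programmed death at metamorphosis, had 37.4 and 39.4 CPM in poxn > prosRNAi, SypRNAi tumors, 245 and 243 CPM in poxn > prosRNAi tumors and 176 and 172 CPM in wild type. It was the called gene of this list between the tumors, with a log2 fold change of -2.67 ± 0.065 (edgeR's adjusted p = 0.00197), and there it lay lowest where skl and rpr lay highest. The Hox genes abd-A and Abd-B, which set NB death in the abdomen, had log2 fold changes over wild type of -2.69 and -2.79 in poxn > prosRNAi, SypRNAi tumors and of -2.84 and -2.65 in poxn > prosRNAi tumors (edgeR's adjusted p from 1.61e-05 to 0.00133). The driver is active in thoracic lineages, and neuronal markers also fell (medians -1.78 and -2.44 in the same order of tumors). The part of these markers in the Hox values was not tested. EcR, br and grh, also on this list, rose over wild type by 0.42, 2.22 and 7.24 in poxn > prosRNAi, SypRNAi tumors. In poxn > prosRNAi tumors they rose by 0.69, 2.10 and 7.36 (edgeR's adjusted p from 4.25e-06 to 0.0194 over both tumors). Grh is also among the NB markers. The transcription factor p53, which activates rpr after irradiation, rose over wild type by 0.89 ± 0.11 in poxn > prosRNAi, SypRNAi tumors (adjusted p = 0.00160) and by 0.95 ± 0.096 in poxn > prosRNAi tumors (adjusted p = 2.67e-04), with -0.058 ± 0.099 between the tumors (adjusted p = 0.704), all by edgeR. Of the p53 exon, 38.0% is shared with asRNA:CR46089 on the opposite strand.

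For each of the 7 genes, the genes with the nearest pattern over the 6 libraries were found among 11247 candidates, by the root mean square distance between centred log2(CPM + 0.5) profiles. Nearest to skl was w (white, an ATP-binding cassette transporter used as an eye-colour marker on fly transgenes) at 0.11, with means of 171, 83.2 and 54.9 CPM in poxn > prosRNAi, SypRNAi tumors, poxn > prosRNAi tumors and wild type. The next was path, an amino acid transporter, at 0.19. Skl thus had the most distant nearest gene of the 7. The noncoding genes CR43963 (0.072) and CR46036 (0.075) lay nearest to rpr, and CG9286 (0.074) and the splicing factor SF2 (0.086) to grim. Diap1 was nearest to EndoGI, an inhibitor of endonuclease G, at 0.024 and Dronc to CG11964 at 0.022. For Dark it was schlank, a ceramide synthase, at 0.023, and for Dcp-1 it was Sym (Symplekin, of mRNA 3′ processing) at 0.040. These distances describe 6 libraries that share conditions and were not tested.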

How the data were processed

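Total RNA of 6 VNC samples was depleted of ribosomal RNA and sequenced with a stranded kit. Per the file headers and methods, the authors mapped reads to Release 6 of the genome (dm3 in the labels) and assigned them to exons of FlyBase release 6.19 using featureCounts 1.5.0. The deposited table holds raw counts, not normalized. Each read was given to every gene it overlaps, with no strand setting, and the command sets no counting by fragment, so mates may be counted separately. Counting errors are therefore only part of the error. Positions match the Release 6 annotation for 99.3% of the 14392 genes with a matched identifier.

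Counts were analysed with edgeR 4.0.16 under R 4.3.3: TMM, filterByExpr with a minimum count of 10, prior count 2, quasi-likelihood test on the 4 libraries of each comparison (13703, 14162 and 14289 genes), Benjamini-Hochberg adjustment over all genes and a threshold of 0.05. SEs are the log2 fold change over the root of F. CPM used TMM over all 6 libraries. Genes named were the 7, listed genes with an adjusted p under 0.05 and a log2 fold change of at least 0.5 or direct partners (hid, Drice, Diap2, Bruce), the 2 nearest patterns among genes averaging 100 or more counts, and pros and Syp. CheA75a and the genes overlapping the exons of named genes were added after their values were seen. The 7 genes and all lists were chosen with earlier results of these data known. Alternatives were DESeq2 1.42.0 (size factors, Wald test), library totals alone, rRNA genes left out, other filters, all 6 libraries in one fit, a replicate block, a threshold of 0.001 and leaving out each library. Subtraction of overlapping genes and a crossed block were added after seeing the data. On simulated counts for poxn > prosRNAi, SypRNAi over poxn > prosRNAi tumors (13737 genes), 100% of log2 changes of 1.5 and 39% of those of 0.5 were called. The simulation gave every gene the same preset dispersion, not fitted to these libraries, and changed only genes above a minimum mean count. Its percentages therefore check the procedure and do not measure its power on these libraries. Plots used matplotlib 3.10.9.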

Additional observations from a re-analysis of the deposited data

How the results depend on the processing

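Between the tumors, 1 of the 7 genes was called, against 4 with library totals alone, 2 with DESeq2's Wald test, 2 with all 6 libraries in one fit and 0 at a threshold of 0.001 (edgeR), with 0 to 1 when a library was left out. At 0.001, 0 of the 36 other genes and 0 of all genes were called by edgeR, although 5435 genes had an unadjusted p under 0.05 and DESeq2 called 1990. The 15 calls among the other genes became 0 to 15 with a library left out, and the 3190 of all genes 6 to 2836 (6 without the second and 235 without the first poxn > prosRNAi library). At 0.001, 3 of the 7 genes (all genes 7735) were called in poxn > prosRNAi tumors over wild type, and 2 of the 7, 13 other genes and 5286 of all genes in poxn > prosRNAi, SypRNAi tumors over wild type. In poxn > prosRNAi tumors over wild type the log2 fold change of rpr turned to -0.17 and that of Diap1 to -0.13 with library totals alone, and that of rpr ran from -0.077 to 0.31 with a library left out. The cause was not tested. With a library left out, the remaining library of that condition was assumed to vary like the pair of the other condition. The replicate numbers were not taken to pair the libraries, since the labels name no shared batch and there are only 2 numbers. Deviations of same-numbered libraries correlated at 0.350 between the tumors, at -0.239 in poxn > prosRNAi tumors over wild type and at -0.0636 in poxn > prosRNAi, SypRNAi tumors over wild type. A replicate block gave 1, 5 and 7 calls among the 7 genes in the 3 comparisons and 18, 32 and 29 among the other genes. A crossed pairing in poxn > prosRNAi tumors over wild type gave 5 and 32 calls.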

Other observations

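Decay, an effector caspase with 210 counts in the first poxn > prosRNAi, SypRNAi library, had 1 count in the second, 8 and 0 counts in poxn > prosRNAi tumors and 2 and 23 counts in wild type, so that its mean rests on a single library.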
